A study of Mus musculus with 18 samples.

Results

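The comparison described here is between spleen CD8 T cells of mice returned from a high fat diet to normal diet and those of mice that never left normal diet. It takes every library that its label assigns to the switched diet (SW, 6 libraries) or to normal diet (ND, 6 libraries), which is 12 of the 18 libraries of the series. ND mice ate normal diet for 12 weeks. SW mice spent the first 6 weeks on high fat diet and the following 6 weeks on normal diet. A further 6 libraries are from mice kept on high fat diet for 12 weeks (HFD); they entered the fit and lent their spread to it, and their values are given beside those of SW. All mice are labelled wild type (WT) and no age is given for any group. The cells were sorted by flow cytometry from spleen, used fresh, and measured by RNA-seq of polyadenylated RNA. Cells taken at the time of the diet change were not analysed here.

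CD8 T cells are the cytotoxic arm of the T cell response. In the spleen of an unchallenged mouse most of them are naive cells that wait for antigen, with a smaller share of memory cells. When a T cell is triggered through its receptor, immediate early genes and cytokine genes such as Tnf are transcribed within a short time, and the messages are then removed quickly by proteins that bind their 3′ untranslated regions. Negative regulators such as SOCS1 and the atypical inhibitors of NF-kB are themselves induced by the signals they restrain. The title of the series links a transient high fat diet to a lasting susceptibility to ferroptosis, a form of cell death driven by iron and the peroxidation of membrane lipids, in which the enzyme GPX4 is the main line of defence.

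The 12 libraries held 11947339 to 16398340 counts each, with a mean of 13894300 ± 1868970 (SD, n = 6) in ND and 13633600 ± 1116860 in SW. The sorted cells carried the transcripts of their label. Cd8a, the CD8 alpha chain, averaged 1494 ± 64.1 CPM (counts scaled to a common library size) in ND and 1519 ± 64.9 CPM in SW, and Cd8b1, the beta chain, 1273 ± 52.4 and 1257 ± 40.5 CPM. Cd4 stood at 0.274 CPM in ND and 0.510 CPM in SW. On the first principal component of the 12 libraries (14.4% of the variance of the 1000 most variable genes) the SW libraries lay between 1.37 and 13.3 and the ND libraries between -18.3 and 4.22, so the groups overlapped. The second component (12.2%) separated replicates 1 and 2 of both diets, whose files carry the numbers 3 and 4, from replicates 3 to 6, whose files carry 5, 8, 9 and 10. Replicates 1 and 2 lay between 6.27 and 12.5 on it, and the other 8 libraries between -12.5 and 0.744. What these numbers mark is not stated. The library set was a term of the fit. Each diet has 2 libraries in one set and 4 in the other, so set and diet are balanced. Whether each library is a mouse of its own is not in the labels. The p-values therefore weigh differences against the spread among these samples, part of which may be technical.

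Of 13690 genes tested with edgeR, 22 had a Benjamini-Hochberg adjusted p under 0.05 and are named called here, which is 0.161% of the genes tested. Of these 5 were higher in SW (0.0365%) and 17 lower (0.124%). Among the genes that fell were Tnf, Socs1 and Nfkbid of inflammatory signalling, the RNA-binding regulators Mex3b and Rc3h1, Pdp2 and Slc38a2 of metabolism, Sgk1 and Pcna. Among those that rose were Dtx4, Zfc3h1, Pnisr and 2 non-coding transcripts. The median size of the 22 differences was 0.31 on the log2 scale, the smallest 0.19 and the largest 0.91, and 4 genes changed by at least 1.5-fold. The median over all genes tested was 0.00, with 50.5% of them above 0. The common biological coefficient of variation was 0.0983.

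The number of calls in SW against ND changed with the design and with single libraries. In a fit with diet alone 2 genes were called (0.0146% of those tested), Tnf among the lower (0.0073%) and 2010016I18Rik among the higher (0.0073%). No gene was called without ND 1, ND 3, ND 5 or SW 2. A single gene, 2010016I18Rik, remained without SW 5, and Socs1 and Mex3b without SW 6. Without SW 4 the fit called 6 genes, 4 of them among the 22. Without HFD 1 the count was 42, and without any other library 18 to 33. The number of genes with an unadjusted p under 0.05 ran from 1023 to 1372 in these fits, against 1239 with all libraries. DESeq2 called 110 genes and limma-voom 70, and both included all 22. A fit of the ND and SW libraries alone called 89, with 20 of the 22 among them. No called gene changed direction in any of the alternatives tried, which reuse the counts the genes were picked from. HFD against ND called 535 genes in the same fit (3.91%), 262 higher (1.91%) and 273 lower (1.99%), and SW against HFD called 116 (0.847%), 63 higher in SW (0.46%) and 53 lower (0.387%).

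**Figure D1:**
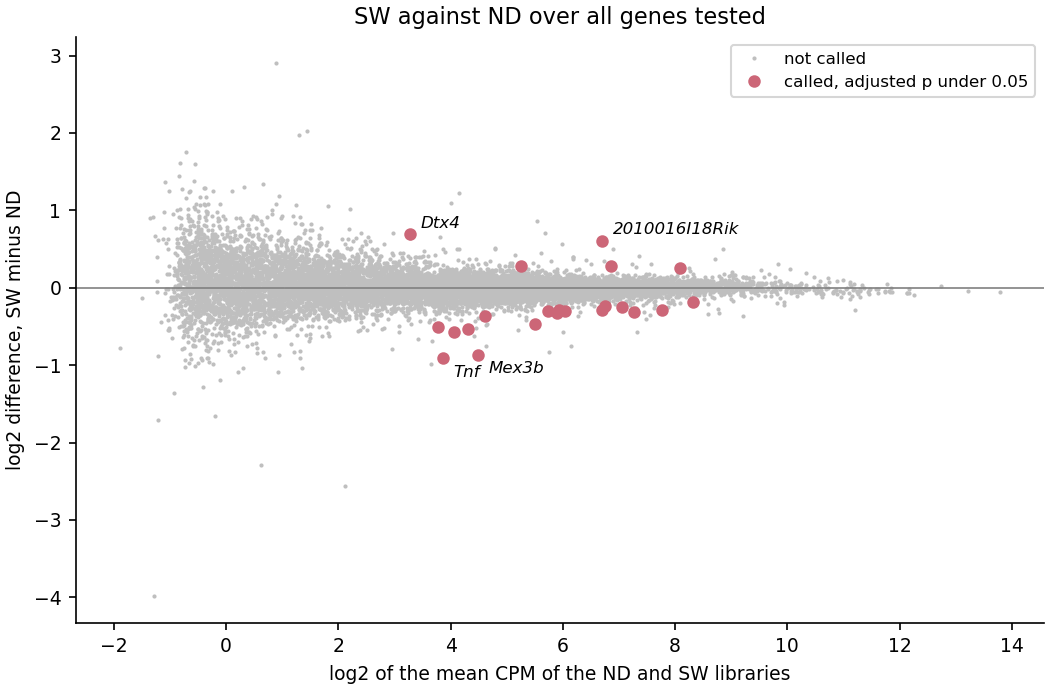
Log2 difference of SW minus ND (vertical axis) against the log2 of the mean CPM of the ND and SW libraries (horizontal axis) for the 13690 genes tested. Large points are the 22 called genes, 5 above and 17 below the line at 0; grey points are the others, many of which lie farther from 0 at low levels, where counts vary more.

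**Figure D2:**
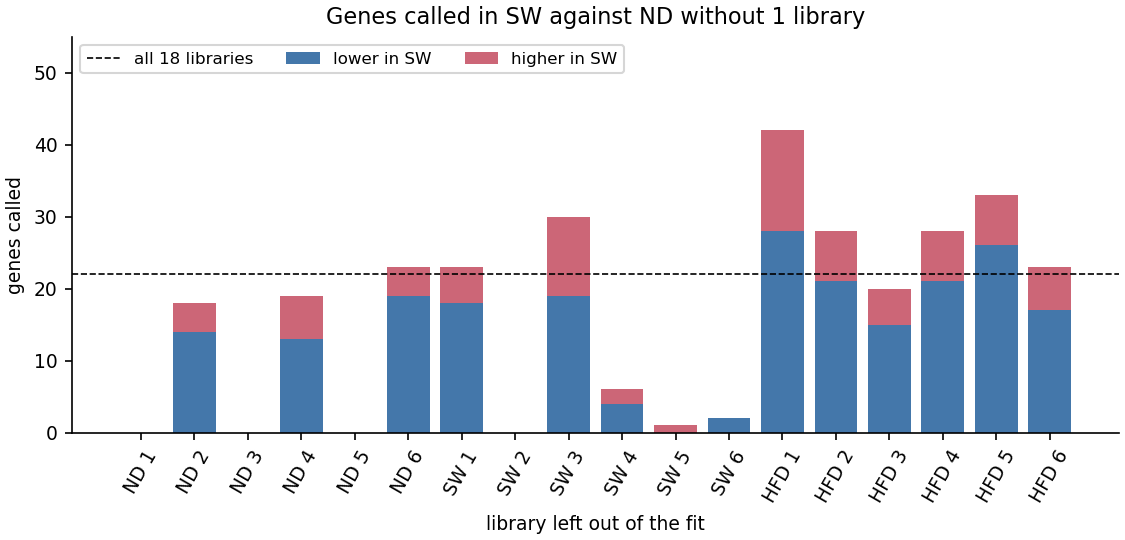
Number of genes called in SW against ND (vertical axis, bars stacked by direction) when 1 library (horizontal axis) is left out of the fit; the dashed line is the count of 22 from all 18 libraries. The bars are absent for ND 1, ND 3, ND 5 and SW 2, where no gene was called, and highest for HFD 1, at 42.

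Every SW library lay beyond every ND library for 98 of the 13690 genes (0.716%), above for 41 (0.299%) and below for 57 (0.416%). Of the 22 called genes, 13 showed this separation. The remaining 9 overlapped in their extremes. The called genes lay beyond the ND mean in 6 of 6 SW libraries, except Pnisr and Rc3h1 (5 of 6). They were picked for their differences in these same libraries, so both counts were likely to be high from the outset.

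Tnf, the gene of the inflammatory cytokine TNF, showed the largest difference among called genes. Its level ran from 13.0 to 24.0 CPM over the ND libraries (median 19.3) and from 7.79 to 12.2 CPM over the SW libraries (median 9.86). The highest SW library was SW 4 and the lowest ND library ND 6, and the groups did not overlap. The means were 19.1 ± 4.85 CPM in ND and 10.1 ± 1.62 CPM in SW (SD, n = 6). The difference was -0.91 ± 0.17 (log2, SE; 95% interval -1.25 to -0.56; edgeR adjusted p = 0.0283; lower than the ND mean in 6 of 6 SW libraries). It was -0.91 in replicates 3 to 6 and -0.91 in replicates 1 and 2. The gene lies at chr17:35199381-35202007 on the minus strand (GRCm38, as are all positions here).

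Nfkbid encodes the nuclear NF-kB inhibitor known as IkappaBNS, which is made in response to receptor signals and modulates NF-kB at selected promoters. It stood at 61.1 to 74.9 CPM in ND (median 66.3) and at 45.0 to 60.9 CPM in SW (median 52.4). All SW libraries were below all ND libraries, by a narrow margin between the nearest. The log2 difference was -0.32 ± 0.07 (adjusted p = 0.0283).

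Socs1 encodes the suppressor of cytokine signalling that binds JAK kinases and damps signals from interferon and common gamma chain receptors. Its level was 48.9 to 57.8 CPM in ND (median 52.2) and 32.0 to 49.98 CPM in SW (median 36.5). A single library, SW 6, reached into the ND range, at 49.98 CPM, and the next SW library stood at 38.8 CPM. The log2 difference was -0.47 ± 0.09 (adjusted p = 0.0283). Socs1 also differed between SW and HFD, with an adjusted p of 0.0400 and a mean of 49.95 ± 6.19 CPM in HFD. Its mean was thus lowest in SW among the diets.

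Rc3h1 and Mex3b encode proteins that bind mRNA. Roquin-1, the product of Rc3h1 (chr1:160906418-160974978), recognises stem loops in the 3′ untranslated regions of immune messages, Tnf among them, and hastens their decay. Its message was at 94.8 to 129 CPM in ND (median 112) and at 78.6 to 120.0 CPM in SW (median 87.8). The ranges overlapped, and SW 1, at 120.0 CPM, was above 4 of the ND libraries. Over all diets Rc3h1 was higher in replicates 1 and 2 than in replicates 3 to 6 (0.26 on the log2 scale, adjusted p of the set term 0.000378), and the difference between diets was -0.29 ± 0.06 with the set in the fit (adjusted p = 0.0283) and had an adjusted p of 0.354 without it.

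Mex3b, a KH-domain protein of the MEX-3 family, ran from 22.1 to 34.9 CPM in ND (median 29.6) and from 8.53 to 18.7 CPM in SW (median 16.9). The groups did not overlap, and SW 6 was far below the other SW libraries. The difference was -0.87 ± 0.17 (adjusted p = 0.0468, next to the threshold). Just beyond the threshold came Ptpn4, Cbx8, Errfi1 and Slbp, all lower in SW, each with an adjusted p of 0.0520.

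Messages that contain repeats of AUUUA are recognised by decay factors of the TTP family. Such stretches are called AU-rich elements. The string searched here was ATTTATTTA, on the sense strand of the 3′ untranslated region of the longest coding transcript of each gene. It was found in 2 of the 17 genes called lower, Tnf and Enc1 (11.8%), in none of the 3 coding genes called higher, and in 704 of the 11116 genes with such a region (6.33%). The sequences shown are 30 bases around a match in each gene, from GENCODE M21 and GRCm38, with the matches in capitals, at chr17:35199679-35199708 on the minus strand for Tnf and at chr13:97251683-97251712 on the plus strand for Enc1.
Tnf: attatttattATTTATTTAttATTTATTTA
Enc1: tccaaagcttATTTATTTAtctatttattt
Both untranslated regions held 2 matches. In Tnf they lie 2 bases apart in the stretch shown. A match is a string of letters and is given as a description.

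Zfc3h1 and Pnisr, both of RNA metabolism in the nucleus, were higher in SW. ZFC3H1 links polyadenylated nuclear RNA to the exosome for degradation. Its gene stood at 98.0 to 113 CPM in ND (median 105) and at 112 to 144 CPM in SW (median 125), with a difference of 0.28 ± 0.06 (adjusted p = 0.0283). The ranges met only at the edge. Pnisr encodes an arginine- and serine-rich protein of nuclear speckles. It ran from 219.9 to 269 CPM in ND (median 248) and from 246 to 373 CPM in SW (median 290.4), with SW 5 the highest library, and differed by 0.25 ± 0.05 (adjusted p = 0.0283). Pnisr was higher than the ND mean in 5 of 6 SW libraries, and it differed from HFD as well (adjusted p = 0.0364; HFD mean 253 ± 20.1 CPM).

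Eif5 encodes the factor that triggers GTP hydrolysis when a ribosome finds a start codon. At 321 to 379 CPM in ND (median 337) and 288 to 319 CPM in SW (median 299.6) it was the most abundant called gene by CPM and had the smallest difference, -0.19 ± 0.04 (adjusted p = 0.0342). No SW library reached the ND range.

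The called genes for metabolic enzymes and their regulators, an amino acid carrier and the kinase Sgk1 were lower in SW. Pdp2 is a phosphatase that switches pyruvate dehydrogenase on and so opens the way from glycolysis into the citric acid cycle. It ran from 21.7 to 26.8 CPM in ND (median 22.9) and from 12.2 to 20.4 CPM in SW (median 15.6), without overlap, and differed by -0.53 ± 0.10 (adjusted p = 0.0283). The difference was -0.64 ± 0.13 in replicates 3 to 6 and -0.33 ± 0.18 in replicates 1 and 2.

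Slc38a2 encodes SNAT2, a sodium-coupled carrier of small neutral amino acids that rises when cells are starved of them. Its level was 212 to 262 CPM in ND (median 248) and 182 to 219.6 CPM in SW (median 194). Of the SW libraries SW 1 alone reached the ND range, and the difference was -0.28 ± 0.06 (adjusted p = 0.0342). Sgk1, a kinase regulated by serum, glucocorticoid and PI3 kinase signals, ran from 133 to 162 CPM in ND (median 142) and from 112 to 131 CPM in SW (median 122), without overlap, and differed by -0.24 ± 0.05 (adjusted p = 0.0283).

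Sephs2 makes selenophosphate, the selenium donor for selenocysteine, and is itself a selenoprotein. It stood at 25.5 to 30.6 CPM in ND (median 27.1) and at 17.6 to 25.7 CPM in SW (median 21.1). The highest SW library just reached the lowest ND library. The difference was -0.37 ± 0.08 (adjusted p = 0.0342). It was the only member called among 26 selenoprotein and selenium incorporation genes, whose median difference was -0.01.

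Prps1l3 resembles the gene of phosphoribosyl pyrophosphate synthetase 1. It was at 59.0 ± 5.96 CPM in ND and 47.8 ± 4.03 CPM in SW, with overlapping ranges and a difference of -0.30 ± 0.06 (adjusted p = 0.0283). Reads may be shared with Prps1, which stood at 41.2 ± 2.85 and 39.7 ± 4.01 CPM and was not called (-0.05 ± 0.06, adjusted p = 0.865), and Prps1l3 overlaps Mipol1 on the same strand, so its value is uncertain.

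Genes of the cell body, the cell cycle and transcription made up most of the rest. Tuba4a, an alpha tubulin, had the smallest unadjusted p of all genes. It ran from 155 to 191 CPM in ND (median 173) and from 128 to 148 CPM in SW (median 137), without overlap, and differed by -0.31 ± 0.06 (adjusted p = 0.0283). Its end overlaps Stk16 on the other strand, which differed by -0.07 ± 0.06 (adjusted p = 0.790).

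Arl4d, a small GTPase of the ARF-like family that acts at the plasma membrane, was at 13.8 to 17.8 CPM in ND (median 16.3) and 10.5 to 12.5 CPM in SW (median 11.0). The SW libraries were tightly grouped below the ND libraries, with a difference of -0.51 ± 0.11 (adjusted p = 0.0357). Enc1, a kelch protein that binds actin, averaged 72.2 ± 5.98 CPM in ND and 58.5 ± 5.22 CPM in SW, with some overlap, and differed by -0.30 ± 0.06 (adjusted p = 0.0283). It averaged 72.1 ± 7.53 CPM in HFD, and SW differed from HFD too (adjusted p = 0.0102).

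Pcna, the sliding clamp of DNA replication and repair, ran from 112 to 122 CPM in ND (median 117) and from 86.2 to 109 CPM in SW (median 98.9). The groups did not overlap, and the difference was -0.24 ± 0.05 (adjusted p = 0.0342). It was the only call among 37 proliferation genes, 14 of which were above 0 and 23 below, with a median of -0.02.

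Zfp747, a zinc finger gene of the KRAB class, was at 18.05 to 22.1 CPM in ND (median 19.5) and 11.0 to 15.7 CPM in SW (median 13.6), without overlap (-0.57 ± 0.12, adjusted p = 0.0283). BC031181, a protein coding gene, ran from 64.4 to 69.8 CPM in ND (median 67.2) and 52.9 to 59.7 CPM in SW (median 54.4), and differed by -0.29 ± 0.05 (adjusted p = 0.0283).

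Dtx4, a ubiquitin ligase of the Deltex family, which acts in Notch signalling, was the called gene with the largest rise. Its level was 6.57 to 8.09 CPM in ND (median 7.37) and 7.95 to 17.1 CPM in SW (median 11.3). SW 1 lay inside the ND range and the other 5 SW libraries above it. The difference was 0.69 ± 0.14 (adjusted p = 0.0283), and it was 0.94 ± 0.15 in replicates 3 to 6 and 0.18 ± 0.22 in replicates 1 and 2. The test of that contrast between the sets gave an unadjusted p of 0.00774 and an adjusted p of 0.998.

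The 2 remaining higher genes are non-coding. 2010016I18Rik, a processed transcript at chr3:106481982-106485913 on the minus strand, ran from 71.0 to 99.4 CPM in ND (median 80.7) and from 106 to 159 CPM in SW (median 119). No libraries overlapped, and the rise of 0.61 ± 0.09 (adjusted p = 0.0283) was 0.61 in each library set. It overlaps Dennd2d on the other strand, a Rab exchange factor gene at 269 ± 16.1 CPM in ND and 278 ± 26.6 CPM in SW (0.05 ± 0.05, adjusted p = 0.860). The sources used here do not say whether strand was kept in sequencing or counting, so the reads of such pairs cannot be told apart.

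Gm44174, annotated as a long intergenic RNA, lies at chr6:71353035-71373284 on the plus strand, between Cd8b1 and Cd8a and ending close to the start of Cd8a. It was at 32.6 to 37.9 CPM in ND (median 34.3) and 39.3 to 46.9 CPM in SW (median 41.8), without overlap, and differed by 0.28 ± 0.06 (adjusted p = 0.0468). The neighbouring Cd8a differed by 0.02 ± 0.04 and Cd8b1 by -0.02 ± 0.04. Gm44175, on the opposite strand within Gm44174, differed by 0.29 ± 0.09 and was not called (adjusted p = 0.188).

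**Figure D3:**
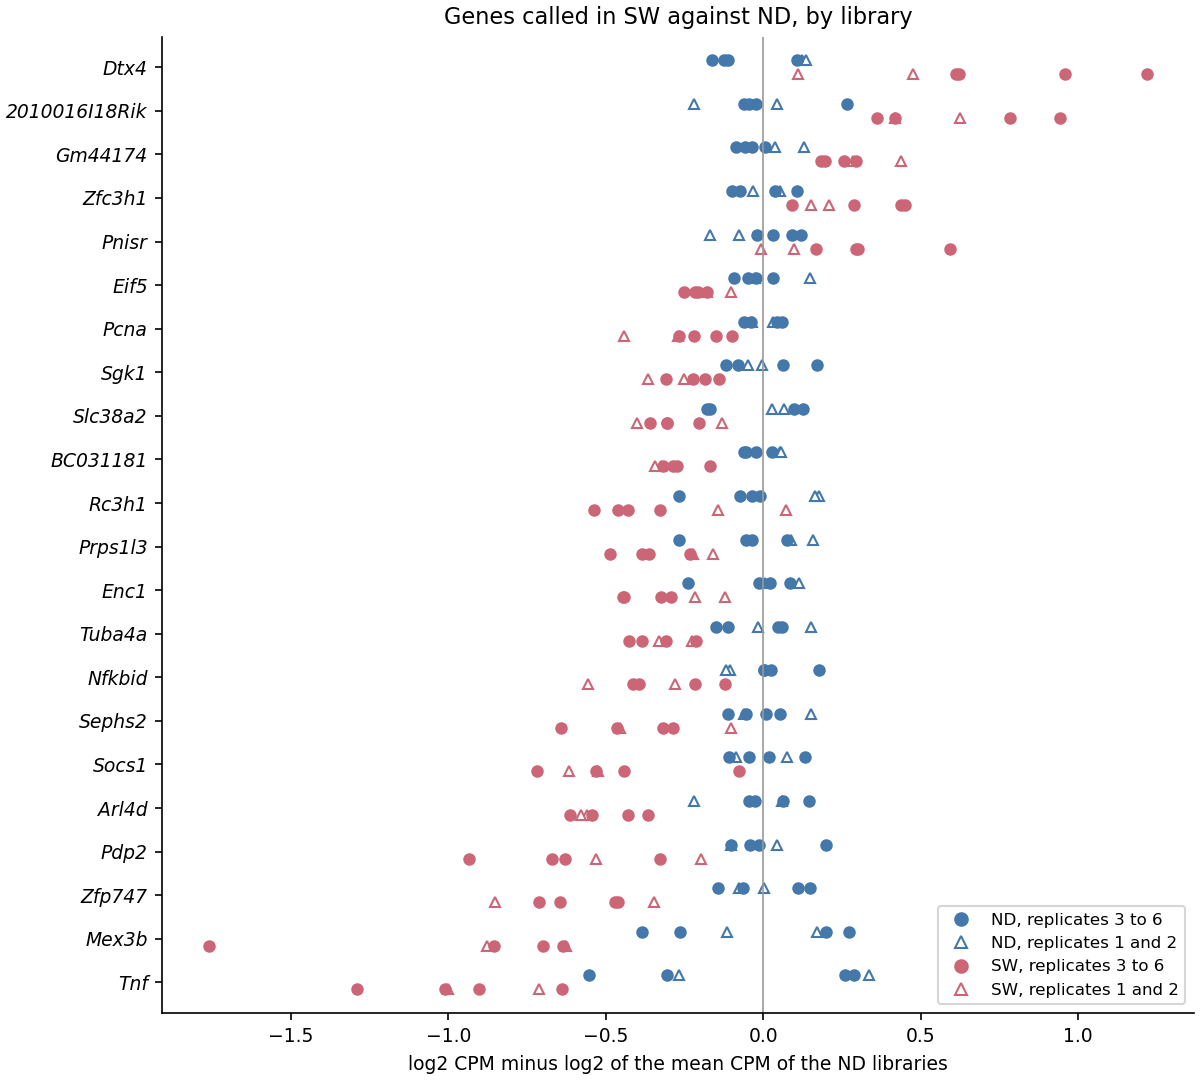
Each of the 22 called genes by library: log2 CPM minus the log2 of the mean ND level (horizontal axis), with ND in blue and SW in red, filled circles for replicates 3 to 6 and open triangles for replicates 1 and 2. SW 6 lies far to the left for Mex3b, and for Dtx4 the SW triangles are nearer to the ND points than the SW circles.

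The 22 genes had the same sign in both library sets. They were picked from a fit to both sets together, so a like sign in each was likely from the outset. For the library set by diet interaction, SW against ND, edgeR called no gene (0% of 13690), with 425 genes at an unadjusted p under 0.05 and a smallest adjusted p of 0.998. DESeq2 and limma-voom also called none in this test, with 419 and 754 genes at an unadjusted p under 0.05. Fitted within replicates 3 to 6 alone, 5 genes were called, 2 of them among the 22, and within replicates 1 and 2 alone none, with 664 at an unadjusted p under 0.05. Each set alone has few libraries, and the SE of Tnf was 0.22 in the larger and 0.31 in the smaller.

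**Figure D4:**
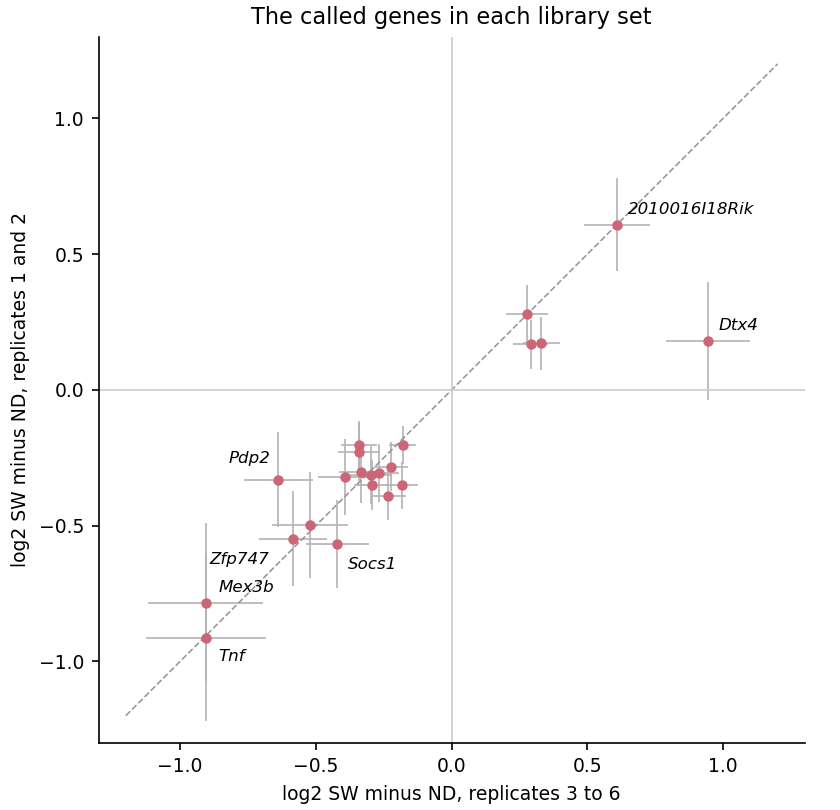
Log2 difference of SW minus ND within replicates 3 to 6 (horizontal axis) and within replicates 1 and 2 (vertical axis) for the 22 called genes, with bars of 1 SE; the dashed line marks equal values. All points lie in the quadrants of equal sign, and Dtx4 (0.94 and 0.18) and Pdp2 (-0.64 and -0.33) lie off the line toward the larger set. The genes were picked from a fit to both sets together.

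HFD minus ND values come from the same fit and share the ND libraries with SW minus ND, so a gene whose ND libraries happen to be high is lower in both. They are given side by side for that reason. Of the 22 genes, 10 were also called in HFD against ND, where 3.91% of all genes were called. The shared ND libraries raise that overlap. Tnf was at -0.74 ± 0.16 in HFD, Mex3b at -0.80 ± 0.16, Pdp2 at -0.54 ± 0.10, Tuba4a at -0.48 ± 0.06 and Nfkbid at -0.46 ± 0.07. Socs1 was at -0.08 ± 0.09, Sgk1 at -0.06 ± 0.05, Pcna at -0.07 ± 0.05 and Zfc3h1 at 0.07 ± 0.06, none of them called there. SW itself differed from HFD in 3 of the 22, namely Enc1, Pnisr and Socs1, against 0.847% of all genes. That comparison shares the SW libraries.

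Gene lists put these calls in the setting of known pathways. For each list the members tested, the calls and the median difference are given. They are to be read against 0.161% called, 50.5% above 0 and a median of 0.00 over all genes. Among 18 cytokine and TNF family ligand genes Tnf was the single call, and the median was -0.02. Ifng, the signature cytokine of effector CD8 cells, was low in both groups, at 3.42 ± 1.16 CPM in ND and 1.70 ± 0.715 CPM in SW, with overlapping ranges (-1.03 ± 0.34, adjusted p = 0.285). Osm, the gene of oncostatin M, was at 17.6 to 21.5 CPM in ND and 13.2 to 17.4 CPM in SW, without overlap, and was not called (-0.34 ± 0.10, adjusted p = 0.188).

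Among 36 genes of TNF and NF-kB signalling Nfkbid was the single call and the median was -0.01. Zc3h12a, the gene of the RNase regnase-1, which cleaves cytokine messages, differed by -0.25 ± 0.07 and did not pass (adjusted p = 0.121). Of 39 immediate early and activation genes none was called, 25 were below 0 and the median was -0.09. The median was -0.00 in replicates 3 to 6 and -0.18 in replicates 1 and 2. Klf10, a transcription factor induced by TGF-beta and activation, stood at 13.1 ± 1.99 CPM in ND and 8.29 ± 1.70 CPM in SW (-0.66 ± 0.17, adjusted p = 0.109). Btg2, an antiproliferative gene, was at 214 ± 8.68 and 178 ± 20.5 CPM (-0.27 ± 0.07, adjusted p = 0.109), and Gadd45b, a stress sensor, at 29.0 ± 4.46 and 21.04 ± 4.53 CPM (-0.47 ± 0.13, adjusted p = 0.186).

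Interferon response genes leaned lower without a call. Of 58 tested, 49 were below 0, 11 had an unadjusted p under 0.05, all of them lower, and the median was -0.09, against -0.13 in HFD. Over all genes 1239 of 13690 had an unadjusted p under 0.05 in edgeR, and 50.5% were above 0. The summed CPM of the list overlapped, at 6500 to 7582 in ND and 6124 to 6987 in SW. In none of its members did the groups separate. The nearest to a call was Rtp4, an interferon-induced chaperone of receptor traffic, at 52.7 to 77.7 CPM in ND (median 61.1) and 42.9 to 54.5 CPM in SW (median 50.6), with a slight overlap (-0.33 ± 0.08, adjusted p = 0.0541). Irf1, the transcription factor that relays interferon gamma, was at 271 ± 12.9 and 234 ± 27.1 CPM (-0.21 ± 0.06, adjusted p = 0.188), and Oasl2, an antiviral gene, at 20.9 ± 4.36 and 15.7 ± 3.02 CPM (-0.41 ± 0.13, adjusted p = 0.252).

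Heat shock genes had the lowest median of all lists. Of 25 tested, 22 were below 0, none was called and the median was -0.19, with -0.26 in replicates 3 to 6 and -0.04 in replicates 1 and 2. Dnajb1, a co-chaperone that is among the first targets of HSF1, ran from 157 to 223 CPM in ND (median 194) and from 107 to 185 CPM in SW (median 112). SW 1 lay among the ND libraries, at 185 CPM, and the difference was -0.57 ± 0.16 (adjusted p = 0.194). Of 31 genes of the unfolded protein response none was called, and the median was -0.02. Within it Ddit3, the gene of the stress factor CHOP, was at 19.6 to 21.3 CPM in ND and at 14.97 to 17.3 CPM in SW, without overlap, and was not called (-0.32 ± 0.09, adjusted p = 0.157). Herpud1, of the degradation of proteins from the endoplasmic reticulum, differed by -0.18 ± 0.05 (adjusted p = 0.109).

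No gene of ferroptosis was called. The 39 defence genes and the 25 genes that promote ferroptosis or lipid peroxidation had median differences of -0.04 and -0.03. Gpx4, which reduces lipid hydroperoxides, was at 91.6 to 109.8 CPM in ND (median 97.9) and 89.9 to 99.7 CPM in SW (median 94.4). The difference was -0.06 ± 0.05, and its 95% interval ran from -0.15 to 0.04. Acsl4, which loads membranes with the polyunsaturated fats that peroxidise, was at 53.7 ± 4.30 CPM in ND and 53.0 ± 4.29 CPM in SW, with an interval of -0.14 to 0.10. Slc3a2, the heavy chain of the cystine carrier, was at 118 ± 8.75 and 108 ± 5.53 CPM (-0.14 ± 0.05, adjusted p = 0.365).

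Elovl1, which extends very long saturated fatty acids, separated the groups, with 50.6 to 61.1 CPM in ND and 44.3 to 48.0 CPM in SW, and was not called (-0.21 ± 0.06, adjusted p = 0.123). The summed CPM of the 25 promotion genes ran from 2021 to 2062 in ND and from 1900.1 to 2008 in SW, and did not overlap, while that of the defence genes ran from 2286 to 2377 and from 2223 to 2374. Of the 25 promotion genes 1 separated the groups by itself, against 0.716% of all genes. Over the 35 lists, the sums of naive and central T cell genes and of glucocorticoid and FOXO target genes also separated. Those of the others overlapped. A summed level weighs abundant genes most, and no test was made of it. Cybb, the phagocyte NADPH oxidase gene, went the other way at a low level, 1.203 ± 0.486 CPM in ND and 2.48 ± 0.820 CPM in SW (1.08 ± 0.30, adjusted p = 0.124).

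Iron handling genes held no call among 27, with a median of -0.04. Tfrc, the transferrin receptor that brings iron in, was at 72.1 ± 6.52 CPM in ND and 66.0 ± 5.24 CPM in SW (-0.13 ± 0.06, adjusted p = 0.548). The ferritin chains Fth1 (413 ± 26.1 and 403 ± 32.3 CPM) and Ftl1 (228 ± 14.2 and 223 ± 20.02 CPM) each differed by -0.04, with intervals of -0.13 to 0.05 and -0.15 to 0.08. Gpx1, a selenoprotein of peroxide removal, was at 10.2 ± 1.53 CPM in ND and 7.96 ± 0.915 CPM in SW (-0.36 ± 0.13, adjusted p = 0.373).

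Lipid and energy metabolism held no call in the lists. Of 43 genes of fatty acid oxidation, synthesis and storage, 28 were below 0 and the median was -0.04. G0s2, an inhibitor of the triglyceride lipase ATGL, ran from 13.3 to 17.5 CPM in ND (median 16.1) and from 6.45 to 12.6 CPM in SW (median 9.99). The groups did not overlap, but the gene did not pass (-0.69 ± 0.18, adjusted p = 0.133). Hilpda, another inhibitor of that lipase, was at 10.5 ± 1.35 and 8.43 ± 0.725 CPM (-0.32 ± 0.11, adjusted p = 0.287). Cpt1a, the gate of fatty acids into mitochondria, varied widely within both groups, at 62.1 ± 19.8 and 64.2 ± 16.7 CPM, and its interval of -0.36 to 0.48 leaves the difference poorly measured.

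Of 35 cholesterol genes none was called and the median was -0.05, -0.09 in replicates 3 to 6 and 0.10 in replicates 1 and 2. Fdps, which makes farnesyl pyrophosphate, was at 2.10 ± 0.883 and 1.13 ± 0.299 CPM (-0.90 ± 0.30, adjusted p = 0.256). Of 30 glycolysis genes 24 were below 0, with a median of -0.05. Slc16a1, the lactate carrier MCT1, was at 62.9 ± 5.49 and 54.6 ± 6.75 CPM (-0.21 ± 0.06, adjusted p = 0.109). Of 64 nuclear genes of oxidative phosphorylation, 42 were below 0 and the median was -0.02, and the 12 genes of the mitochondrial genome had a median of 0.05. Of 18 circadian clock genes 14 were below 0, with a median of -0.05, and 9 insulin, leptin and adiponectin receptor genes had a median of -0.00.

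No gene that marks the stages of CD8 T cells was called. In bulk samples fewer cells of a type and less RNA per cell cannot be told apart. Of 40 effector and memory genes 24 were above 0 and 16 below, with a median of 0.03 in SW against 0.37 in HFD. The SW median was 0.09 in replicates 3 to 6 and -0.04 in replicates 1 and 2. Cd44, which marks antigen-experienced cells, was at 61.6 ± 4.47 CPM in ND and 64.6 ± 6.15 CPM in SW (interval -0.06 to 0.19), and at 79.0 ± 6.26 CPM in HFD. Gzmb, a cytotoxic protease, was at 4.86 ± 1.56 and 6.31 ± 2.76 CPM, with a wide interval of -0.52 to 1.35. Klrk1, the activating receptor NKG2D, differed by 0.28 ± 0.10 (adjusted p = 0.365) and Id2, a factor of effector differentiation, by 0.15 ± 0.06 (adjusted p = 0.472). Ly6c2, of the same list, went the other way, by -0.17 ± 0.08 (adjusted p = 0.502).

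Among 23 genes of naive and central T cells none was called, 16 were above 0 and the median was 0.04. Lef1, a transcription factor of naive cells, ran from 466 to 533 CPM in ND (median 496) and from 508 to 606 CPM in SW (median 570.0), and differed by 0.17 ± 0.05 (adjusted p = 0.109). Id3, which restrains effector differentiation, went the other way, from 41.7 to 50.3 CPM in ND (median 46.6) to 32.5 to 38.4 CPM in SW (median 34.3), without overlap and without a call (-0.41 ± 0.10, adjusted p = 0.109). The summed CPM of the list was 9076 to 9599 in ND and 9612 to 9814 in SW, again with no test. Of 15 inhibitory receptor genes 11 were above 0, with a median of 0.18 against 0.49 in HFD and no call. Among 17 genes of CD8 T cell identity none was called and the median was 0.02; Cd3e, a chain of the receptor complex, was at 438 ± 17.2 and 496 ± 34.6 CPM (0.18 ± 0.05, adjusted p = 0.102).

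Glucocorticoid and FOXO target genes gave 1 call of 20, Sgk1, which fell, while the median was 0.05. Tsc22d3, the glucocorticoid-induced leucine zipper gene, had 281 to 437 CPM in ND (median 403) and 479 to 593 CPM in SW (median 555). No library overlapped, but the gene did not pass (0.50 ± 0.17, adjusted p = 0.337). It was at 707 ± 195 CPM in HFD, from 343 to 857 CPM, and the spread of the HFD libraries entered the fit. With single libraries left out its adjusted p in edgeR ran from 0.0619 to 0.559. Pik3ip1, an inhibitor of PI3 kinase, was at 185 ± 9.08 and 208 ± 8.62 CPM (0.17 ± 0.05, adjusted p = 0.161). Of 16 genes of the BCL2 family none was called, 6 were above 0 and 10 below, and the median was -0.02. That median was 0.04 in replicates 3 to 6 and -0.13 in replicates 1 and 2. In edgeR 5 members had an unadjusted p under 0.05, 1 of them higher and 4 lower. The pro-survival genes Bcl2l1 (23.3 ± 1.78 and 19.6 ± 1.45 CPM; -0.25 ± 0.07) and Bcl2 (249.8 ± 17.9 and 219 ± 21.3 CPM; -0.19 ± 0.06) had adjusted p of 0.174 and 0.295. Among 12 histone genes with measurable polyadenylated message 8 were above 0, with a median of 0.17 against 0.54 in HFD and no call; Hist1h1c was at 9.66 ± 2.40 and 13.4 ± 2.74 CPM (0.47 ± 0.16, adjusted p = 0.284).

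**Figure D5:**
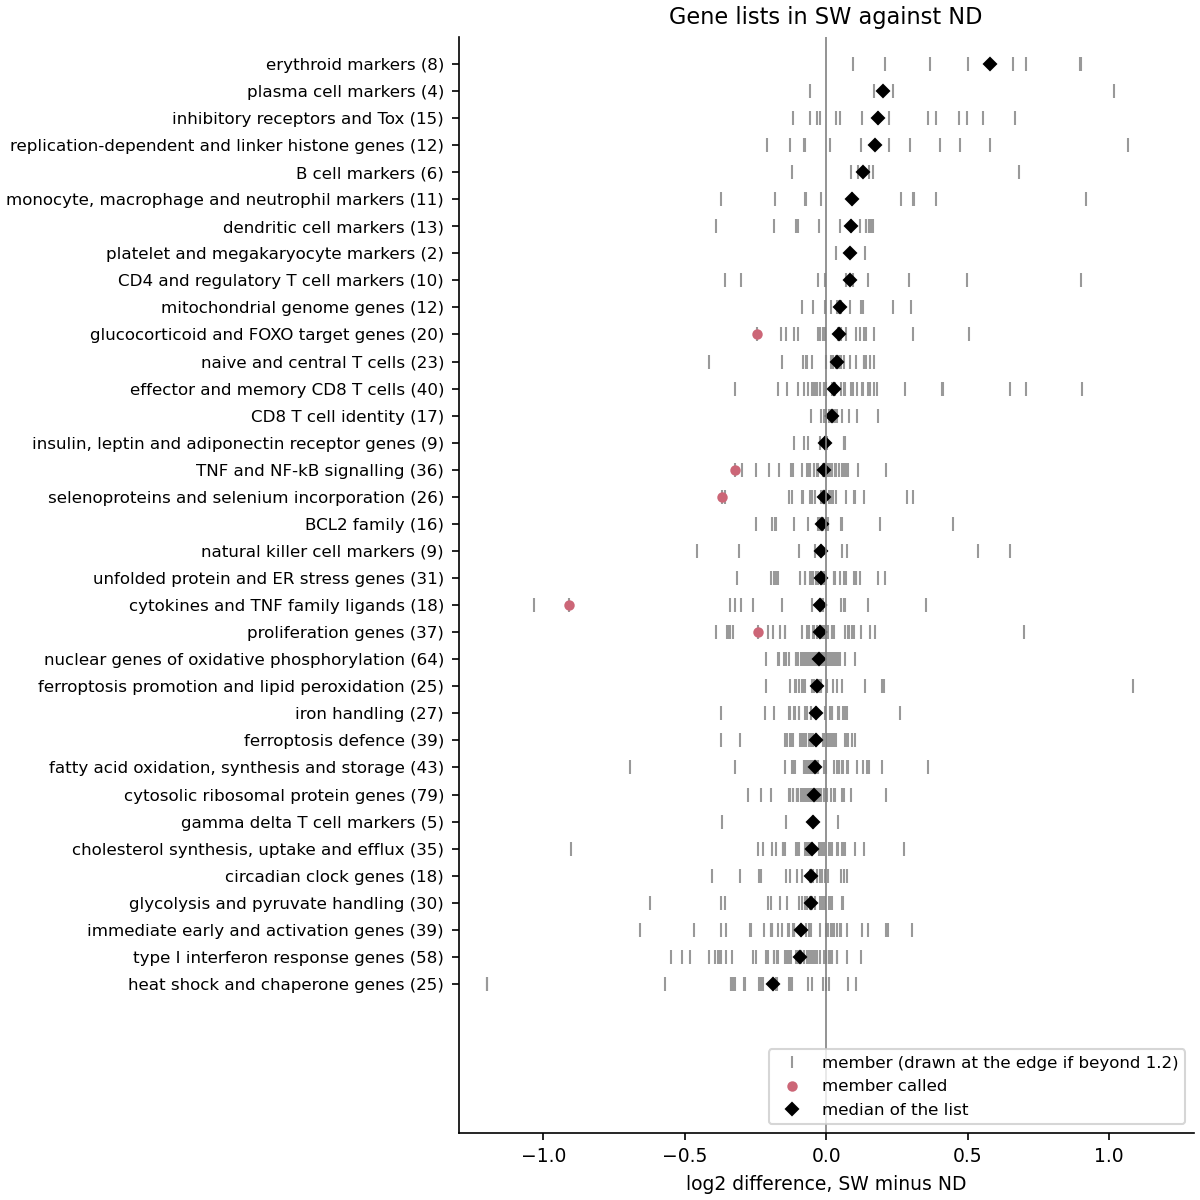
Log2 difference of SW minus ND (horizontal axis) for the tested members of each gene list (number of members in brackets), with the list median as a diamond and called members as red points. Only Tnf, Nfkbid, Sephs2, Pcna and Sgk1 are called, and the list medians lie between -0.19 for heat shock and 0.58 for erythroid markers.

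Transcripts on the marker lists of other cells were present in both diets. The erythroid list had 8 of 13 markers tested, all 8 above 0, with a median of 0.58 and a summed level of 38.1 to 64.4 CPM in ND and 53.4 to 115 CPM in SW. That median was 0.74 in replicates 3 to 6 and 0.23 in replicates 1 and 2, 0.26 without SW 3, and 0.28 on log2(FPKM + 1). B cell markers (6 of 12 tested, 5 above 0, median 0.13) summed to 489 to 548 CPM in ND and 514 to 629.8 CPM in SW, most of it Ighm, at 475 ± 22.0 and 527 ± 33.8 CPM. Monocyte, macrophage and neutrophil markers (11 of 17 tested, 6 above 0, median 0.09) summed to 88.7 to 198 CPM in ND and 98.4 to 145 CPM in SW. Their median was 0.35 in replicates 3 to 6 and -0.44 in replicates 1 and 2. Dendritic cell markers summed to 666 to 1578 CPM in ND and 749.8 to 1308 CPM in SW, with a median of 0.09 that was likewise 0.23 in replicates 3 to 6 and -0.43 in replicates 1 and 2. Of the natural killer markers 9 of 10 were tested, of gamma delta T 5 of 9, and of CD4 and regulatory T all 10. Of the plasma cell markers 4 of 8 were tested, and of the platelet markers 2 of 8. In that order the medians were -0.02, -0.05, 0.08, 0.20 and 0.09. They were 0.08, 0.03, 0.02, 0.31 and 0.09 in replicates 3 to 6. In replicates 1 and 2 they were -0.13, -0.20, 0.03, -0.02 and 0.07. No marker of any of these lists was called. The part of these cells in the differences was not tested. The fits that follow only describe how the calls moved when the summed level of a marker list was added. The other marker lists were not used in this way. With the level of the erythroid markers as a covariate, chosen after the data were seen, all 22 genes remained called among 87, and with that of the monocyte, macrophage and neutrophil markers 21 of the 22 remained among 33. Cytosolic ribosomal protein genes were below 0 for 71 of 79, with a median of -0.04.

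By annotation all 17 genes called lower were protein coding, as were 3 of the 5 called higher, against 81.8% of the genes tested. Per length, on the deposited FPKM scale, the called genes ranged widely in level. Eif5 averaged 51.8 FPKM in ND and 45.6 in SW, and Pcna 50.3 and 42.8. Tnf averaged 12.0 and 6.40 FPKM, Socs1 18.7 and 13.5, and Dtx4 1.45 and 2.38. The called genes thus included both abundant and rare messages per length.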

How the data were processed

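Poly-A RNA-seq of sorted spleen CD8 T cells was analysed in 18 libraries (6 each of ND, SW and HFD). The authors deposited raw counts per gene and, in a second file per library, FPKM values. Per the submitters' processing notes, the tool fastp and the builds GRCm38 and mm10 applied; aligner, counter, annotation release and strand setting were not given in the sources used here. Deposited FPKM values equalled the count times a gene and a library factor (9534 genes whose counts all exceeded 50, largest relative departure 2.5e-09). Of 56748 gene IDs, 52073 matched GENCODE M21 (GRCm38), used for symbols and positions.

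Groups came from the sample titles. Counts were tested in R 4.3.3 by quasi-likelihood F tests of edgeR 4.0.16 (TMM, filterByExpr by diet, robust fit) over all genes, with diet and library set as factors, with calls below 0.05 after Benjamini-Hochberg adjustment. CPM values use TMM library sizes; differences are log2 with SE and 95% intervals of the fit. Medians of lists are without a test. The interaction of diet and set was tested on 6 group means. Genes named were the called genes (up to 20 in each direction, without antigen receptor segments), a set of 16 chosen genes, up to 3 members of each of 35 lists by smallest p, and genes near the threshold or overlapping a called gene, chosen after their values were seen. The comparison, lists and set were chosen with earlier results of these data known. Steps were tested on simulated data.

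Alternatives were DESeq2 1.42.0, limma-voom and limma (3.58.1) on log2(FPKM + 0.1) and log2(FPKM + 1), other size factors and filters, no set term, the replicate number as a block, each set alone, ND and SW alone, removal of receptor, haemoglobin and mitochondrial genes, each library left out, and, chosen after the data were seen, marker levels as covariates. No pair of libraries was as close as counting noise alone would give. The labels name no molecular identifiers, so errors from counting alone would be too small.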

Additional observations from a re-analysis of the deposited data

Results flagged for a closer look

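A sample stood far from the other 5 of its group in 4 of 140 groups of 6 libraries examined, where chance alone flags about 1 group in 20. Mex3b was at 8.53 CPM in SW 6, and the next SW library was at 15.7 CPM. Cpt1a was at 100.2 CPM in ND 2, and the next ND library was at 63.0 CPM. Elovl1 was at 61.1 CPM in ND 3, and the next ND library was at 53.7 CPM. Rps4x, a ribosomal protein gene, was at 2806 CPM in ND 5, and the next ND library was at 2626 CPM. No gene had a difference between SW and ND that differed between the library sets at an adjusted p under 0.05.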

How the results depend on the processing

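Against 22 genes called, 2 were called with no set term, 89 with only ND and SW libraries, 110 with DESeq2, 70 with limma-voom, 34 with a filter of 10 counts in sum, and 1 with log2(FPKM + 0.1) or log2(FPKM + 1). Within replicates 3 to 6 alone 5 were called and within replicates 1 and 2 alone 0. With the erythroid level as a covariate, chosen after the data were seen, 87 were called. Leaving out 1 library each gave 0 to 42 calls: 0 without ND 1, ND 3, ND 5 or SW 2, 1 without SW 5, 2 without SW 6, 6 without SW 4 and 42 without HFD 1. The cause was not tested. The 22 called genes kept their direction in all alternatives run, though the alternatives reuse the counts the genes were picked from. Of the other named genes, Acsl4 turned to 0.0121 and Cd8b1 to 0.00813 within replicates 1 and 2, Fth1 to 0.00352 within replicates 3 to 6, and Cpt1a to -0.32 within replicates 1 and 2. With single libraries left out, Acsl4 ran from -0.0357 to 0.0118, Cd8b1 from -0.0344 to 0.00298 and Cpt1a from -0.0911 to 0.241. Over 70 named genes and all alternatives, 2037 values kept their direction and side of the threshold, 287 no longer passed, 45 newly passed and 10 changed sign. Uncalled genes that stayed uncalled make up most of the 2037, and all 287 losses fall on the 22 called genes. In the 18 fits without 1 library, a called gene kept its call in 6 (Gm44174 and Mex3b) to 13 (2010016I18Rik). Of the list medians 1172 moved by less than the spread between libraries and 17 by more. The sign of the median changed in at least 1 alternative for 15 of the 35 lists, among them insulin, leptin and adiponectin receptor genes (16 of 34 alternatives), natural killer markers (6), selenoproteins (5), dendritic cell and gamma delta T cell markers (3 each), and effector and memory, NF-kB, cholesterol and mitochondrial genome genes (2 each). With the erythroid level as a covariate the erythroid median was 0.08, by construction of that fit.

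With the replicate number as a block in place of the set, 49 genes were called, all 22 among them. Same-numbered ND and SW libraries had deviations correlated at 0.102, 0.0759, -0.0164, 0.0131, 0.0356 and 0.028, in the order of replicates 1 to 6. Of the 6, 1 correlated best with its own number. No clear pairing by number was seen, but correlations among so few libraries cannot exclude one.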

Other observations

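Called genes near each other on a chromosome were looked up after their values were seen. Sephs2 and Zfp747 lie on the minus strand of chromosome 7, at 127271879 to 127274055 and at 127372537 to 127376050 (GRCm38). The stretch was drawn from Sephs2 to Zfp747, so these 2 calls among its 4 tested genes were fixed by that choice. Over all genes tested 0.161% were called. Sephs2 and Zfp747 were both lower in SW, at -0.37 ± 0.08 and -0.57 ± 0.12. Between them lie Itgal, the alpha chain of the integrin LFA-1, at 549 CPM in ND and 559 CPM in SW (0.03 ± 0.05, adjusted p = 0.947 by edgeR), and Zfp768, a zinc finger gene at 0.575 and 0.497 CPM (-0.22 ± 0.53, adjusted p = 0.961).

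Between Cd8b1 and Cd8a on chromosome 6, 3 long intergenic RNAs passed the filter on low counts. Gm44174 was called higher. Gm44110 stood at 1.47 CPM in ND and 1.27 CPM in SW (-0.23 ± 0.31, adjusted p = 0.917), and Gm44175 at 26.1 and 32.2 CPM (0.29 ± 0.09, adjusted p = 0.188).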
